A study of Bos taurus with 13 samples.

Results

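Innate defence, plasma proteins and immune signals were represented on the bovine mammary cDNA array by 8 named genes: LTF, C3, A2M, FGG, CSF1, CSF3, TBK1 and IRAK1. They were chosen by gene symbol alone, as the spots that the platform annotation assigned to 1 of these symbols. They made up 8 of the 703 genes kept, 9 of the 1179 features kept and 27 of the 3888 spots on each array. FGG was printed as 2 clones and each other gene as 1 clone, and every clone had 3 spots.

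The study hybridised pairs of total RNA samples to 13 arrays with 2 colours each. The 8 tissue arrays set bovine lymph tissue, spleen, thymus, adipose tissue, adrenal tissue, liver, ileum and the mammary gland of a prepubertal Holstein heifer of 136 kg, 1 array each, against a cell line named BovMac. The 2 lactating arrays paired lactating mammary gland with gland from a prepubertal Holstein heifer, of 136 kg on array 1 and 227 kg on array 2. The 2 reference arrays set the cell line against itself and served here as the background, and a further array compared prepubertal with postpubertal gland. The sources used here give neither the animals' ages nor the stage of lactation, nor the origin of the cell line. Nothing in the labels says whether lactating arrays 1 and 2 used separate lactating animals, so their spread may be technical.

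Several layers of innate defence are covered by these genes. Lactoferrin, encoded by LTF, is an iron-binding glycoprotein of milk and of neutrophil granules that withholds iron from bacteria. Complement C3, alpha-2-macroglobulin and the fibrinogen gamma chain circulate in plasma, are made largely by the liver, and serve opsonisation, protease trapping and clotting. The colony-stimulating factors CSF1 and CSF3 drive the formation of macrophages and neutrophils, while the kinases TBK1 and IRAK1 carry signals from pattern recognition and interleukin-1 family receptors to interferon genes and to NF-kB.

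All values below are log ratios as deposited, centred on the median of each array, with an exact 0 read as no ratio. The base of the logarithm is not given in the sources used here. The largest deposited value, 8.49 away from 0, would be a ratio of 3.12e+08 in base 10, 361 in base 2 and 4886 in the natural log, so no value was turned into a fold change. The labels state which RNA was in which channel, and leave the dyes out. A sign on the tissue arrays is therefore that of the deposited ratio, and whether it points to the tissue or to the cell line is not settled. With the ratio turned, each order of tissues given below runs the other way, highest becomes lowest, and above becomes below. On the lactating arrays all 4 measured caseins had a positive mean, with CSN1S1 at 2.09, CSN2 at 0.77, CSN3 at 0.41 and CSN1S2 at 0.10. The first 2 were positive on both arrays and were called, whereas CSN3 was -0.16 on array 2 and CSN1S2 -0.19 on array 1, and neither was called. Positive values on these arrays are written as the casein side, likely the one of the lactating gland. A lower share of cells and less RNA in each cell cannot be told apart in these bulk samples.

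The arrays differed in ways that bear on these genes. Over all clones, Spearman's rho between a clone's 3 spots averaged 0.531 to 0.845 on the 10 tissue and lactating arrays, against 0.573 and 0.123 on reference arrays 1 and 2. Exact zeros numbered 124 to 199 spots on those 10 arrays. The median absolute centred value was 0.095 in adipose tissue, 0.108 in liver, 0.168 in spleen and 0.247 in ileum. It reached 0.289 on lactating array 2. Tissue values below are not scaled for this, so orders and ranges over tissues compare arrays of unlike spread. A block of unannotated spots held 67.4% to 69.4% exact zeros on the ileum, mammary gland and lactating array 1, against 98.6% to 100% on the other tissue arrays and on lactating array 2. Of the tissue-defining markers listed for this work, 0 of 21 hepatocyte and 0 of 17 macrophage genes were measured, so the liver label could not be checked against its markers. Of 21 leukocyte genes 3 were measured, and none was called between lymphoid and non-lymphoid tissues, against 0.287% of all genes.

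Across the tissues the 8 genes took small values. Their tissue means over spots lay within 0.5 of 0, except for C3 and 1 FGG clone. Each clone with 3 values on all 8 tissue arrays was asked whether the spots of some tissue lay wholly above or wholly below those of the 7 other tissues. That held for 5 of 7 such clones, namely LTF, CSF1, CSF3, TBK1 and the second FGG clone, against 47.6% of the 1121 features on the array with 3 values throughout. C3 and IRAK1 lacked a spot on 1 tissue array each and did not enter this count. With 1 array a tissue, spots measure the precision of that array and not the spread between animals, so no test was made on tissue levels.

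**Figure D1:**
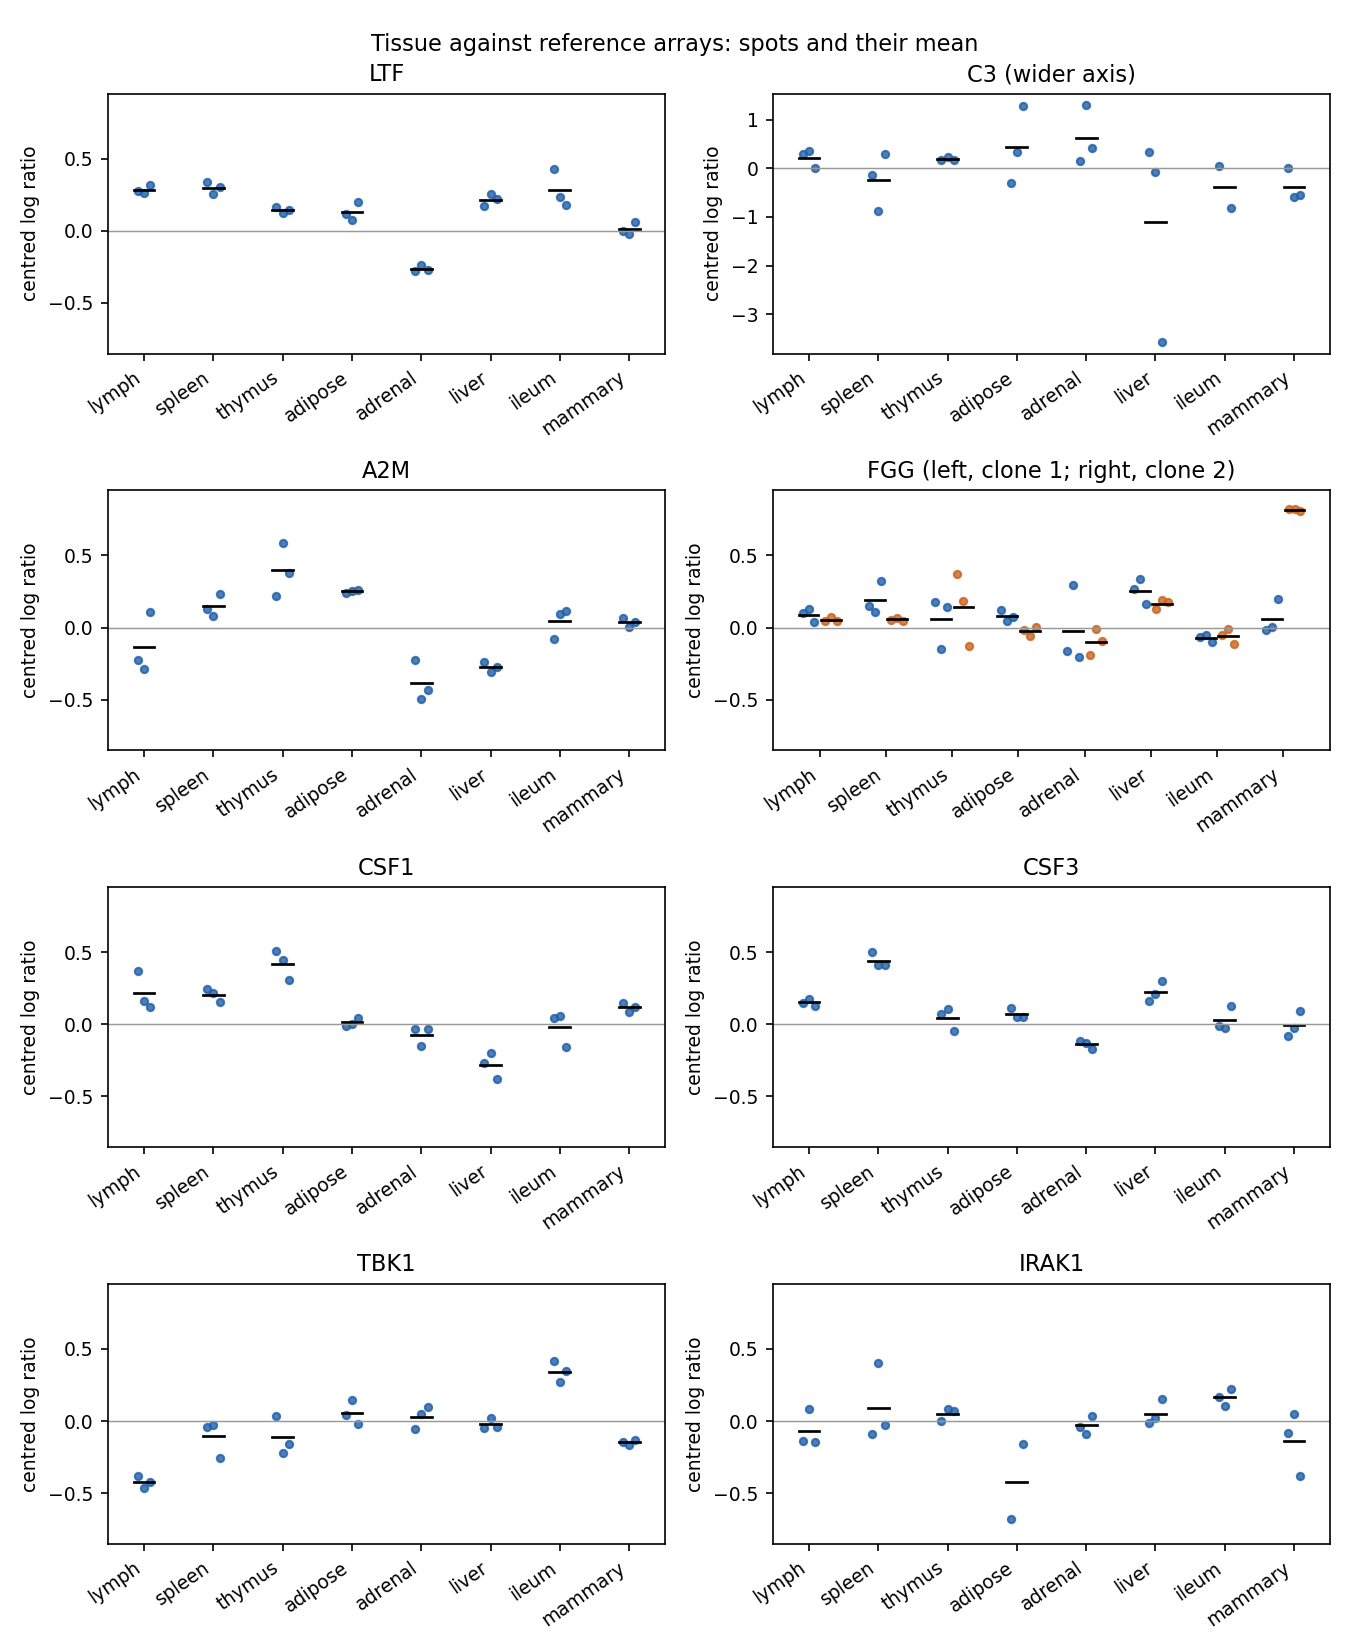
Centred log ratio (vertical axis, log base not stated) of every spot of the 8 genes on the 8 tissue against reference arrays (horizontal axis), with black bars for the mean over spots; FGG shows its clones in 2 colours and C3 has a wider axis. The adrenal spots of LTF, the spleen spots of CSF3 and the mammary spots of FGG clone 2 stand clear of all other tissues, while the spots of C3 scatter widely within a tissue.

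LTF gave the most repeatable signal of the 8. Its lymphoid tissues averaged 0.28 ± 0.03 in lymph tissue, 0.30 ± 0.04 in spleen and 0.14 ± 0.02 in thymus (SD over 3 spots). Adipose tissue had 0.13 ± 0.06, liver 0.22 ± 0.04 and adrenal tissue -0.26 ± 0.02, and ileum and mammary gland stood at 0.28 ± 0.13 and 0.01 ± 0.04. Adrenal tissue was the only negative one of the 8, and its spots of -0.28, -0.24 and -0.27 lay below every spot of the other tissues. Adrenal spots lay below all others for 47 of 1121 features (4.19%). In the order of tissues, the spots of spleen overlapped those of lymph tissue, those of lymph tissue overlapped ileum, and those of ileum overlapped liver. The highest liver spot, 0.2519, lay just below the lowest spots of spleen, 0.2545, and of lymph tissue, 0.2579. Neighbours without overlap were liver and thymus, adipose tissue and mammary gland, and mammary gland and adrenal tissue.

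On the lactating arrays the spots of LTF were 0.13, 0.18 and 0.18 on array 1 and 0.30, 0.21 and 0.14 on array 2. The reference arrays gave -0.25 ± 0.06 and -0.06 ± 0.14 (SD over 3 spots). All 6 lactating spots lay on the casein side, and 5 of the 6 reference spots were negative. The mean of 0.19 ± 0.04 (SD, n = 2 arrays) was not distinguished from 0, with an adjusted p of 0.462 in limma with Benjamini-Hochberg adjustment over 697 genes. Reference array 1 thus lay further from 0 than the lactating mean did. Without centring the lactating mean was 0.09, with an adjusted p of 0.820 in limma. Between lymphoid and non-lymphoid tissues LTF averaged 0.24 ± 0.09 and 0.03 ± 0.25 (SD, n = 3 arrays each), and the difference of 0.21 had an adjusted p of 0.341 in limma.

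Of the 8 genes, 1 was called between lactating and prepubertal gland, against 14.8% of all 697 genes tested. Of those 103 genes 79 lay on the casein side, and without centring 84 genes were called with 52 on that side. With the reference arrays sharing the spread, 38 genes were called. The gene called among the 8 was C3, the central protein of the complement cascade, and its call rested on spots far apart from one another. Array 1 gave -1.28 and 3.76 and array 2 gave 0.41 and 1.64, with the second of the 3 spots at exact 0 on both. The array means of 1.24 and 1.03 lay close together, at 1.13 ± 0.15 (SD, n = 2), and limma's adjusted p was 7.53e-05. The SD over the spots was 3.56 on array 1 and 0.87 on array 2, so the spread within each array exceeded or neared the size of the value. The limma fit sees array means only.

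Each C3 spot alone gave a different answer. The first spot averaged -0.43 over the lactating arrays with an adjusted p of 0.552 in limma, and the third averaged 2.70 with an adjusted p of 0.0921. The first spot was thus on the opposite side on array 1 and on the casein side on array 2. Reference array 1 had C3 spots of -0.90, -0.98 and -0.75, away from 0 by nearly as much as the lactating means, and reference array 2 had a single usable spot at -0.28. Of 11 ways of processing that could be fitted, the main one included, C3 was called in 7. Keeping exact zeros as values gave 0.77 with an adjusted p of 0.0525 in limma, and scaling the arrays to equal spread gave 0.81 with an adjusted p of 0.0739. Leaving out either lactating array gave no value for C3, because that fit borrows its spread from the reference arrays and reference array 2 lacked a C3 mean.

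**Figure D2:**
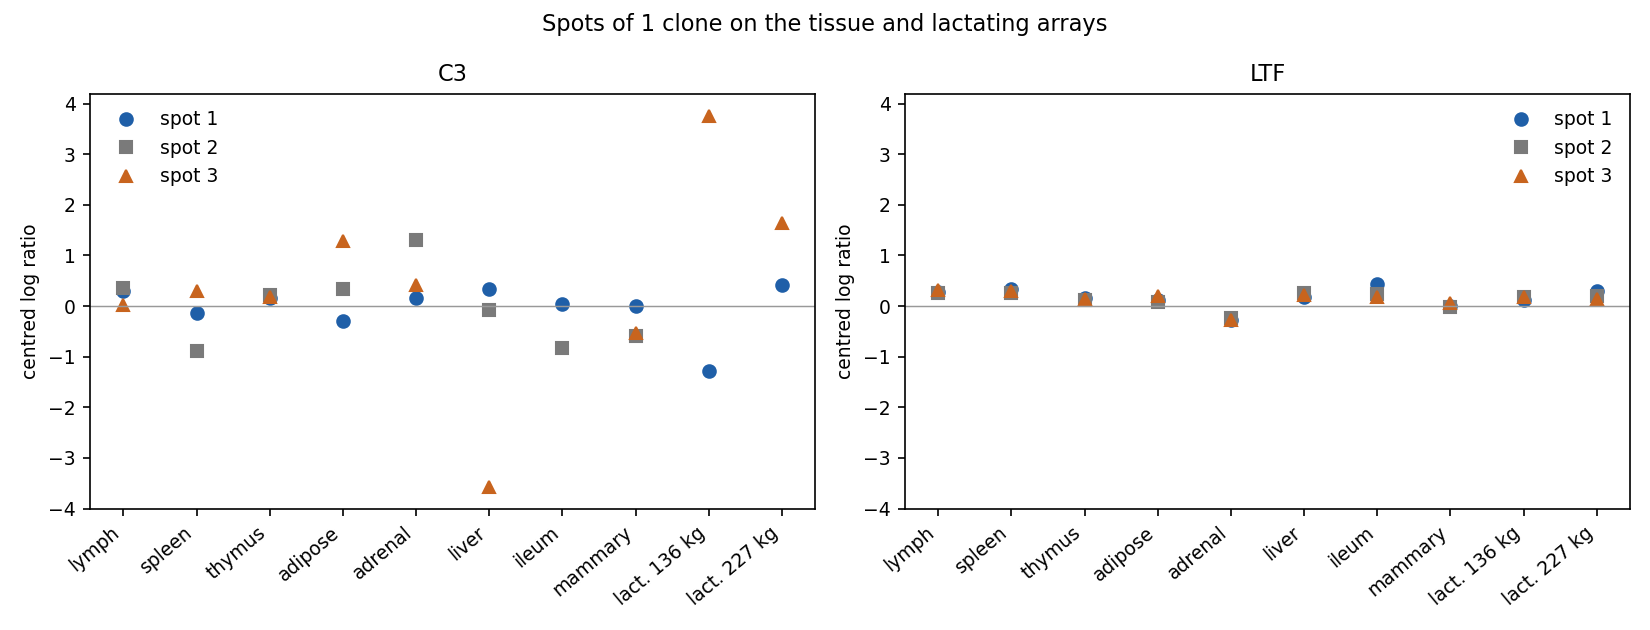
Centred log ratio (vertical axis) of each of the 3 spots of the C3 clone and of the LTF clone on the 8 tissue and 2 lactating arrays (horizontal axis), drawn on 1 scale with 1 symbol a spot. The C3 spots span from -3.57 in liver to 3.76 on lactating array 1, whereas no LTF spot lies outside -0.28 to 0.43.

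C3 was no steadier across tissues. Its means were 0.22 ± 0.18 in lymph tissue, -0.24 ± 0.60 in spleen and 0.19 ± 0.03 in thymus (SD over 3 spots). Adipose tissue had 0.44 ± 0.80, adrenal tissue 0.62 ± 0.60 and mammary gland -0.37 ± 0.33, while the 2 usable ileum spots were 0.04 and -0.82. Every tissue overlapped its neighbour in the order, so no order of C3 levels could be given. The liver spots were 0.34, -0.07 and -3.57, and the mean of -1.10 became 0.13 without the lowest spot. The lymphoid arrays averaged 0.06 ± 0.26 and the non-lymphoid arrays -0.01 ± 0.95 (SD, n = 3 each), with an adjusted p of 0.928 in limma, and without liver the difference of 0.07 turned to -0.47.

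A2M, the broad protease inhibitor, varied between tissues and went opposite ways on the lactating arrays. Thymus had 0.39 ± 0.18, spleen 0.15 ± 0.08 and lymph tissue -0.13 ± 0.21 (SD over 3 spots). Adipose tissue stood at 0.25 ± 0.01, liver at -0.27 ± 0.04 and adrenal tissue at -0.38 ± 0.14, with ileum and mammary gland near 0 at 0.04 ± 0.11 and 0.04 ± 0.03. All 3 spots of liver and all 3 of adrenal tissue were negative, and only adipose tissue and spleen were neighbours in the order whose spots did not overlap. Lactating array 1 had A2M spots of -0.32 and -1.11, with 1 spot at exact 0, and array 2 had 0.77, 0.07 and 0.53. The arrays thus disagreed in sign, the mean was -0.13 ± 0.83 (SD, n = 2), and the adjusted p in limma was 0.769. Reference array 2, where the cell line met itself, gave A2M 0.75 ± 0.52. For lymphoid minus non-lymphoid tissues the limma difference was 0.27 with an adjusted p of 0.361, and the groups overlapped.

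FGG, the fibrinogen gamma chain, was read by 2 clones that parted in the mammary gland. Clone 1 was 0.06 ± 0.12 in mammary gland and clone 2 was 0.82 ± 0.01 (SD over 3 spots). The 3 spots of clone 2 were 0.82, 0.82 and 0.81, each above all 21 of its spots in the other tissues, and the gap to liver, the next tissue, was 0.65. That gap ranked 13 of 1154 features by how far mammary gland exceeded the next tissue in the deposited ratio, while clone 1 ranked 478 with a gap of -0.19. With the ratio turned, the same gap would place mammary gland below the other 7 tissues. Mammary spots lay above those of all other tissues for 52 of 1121 features (4.64%). Over the 8 tissues Pearson's r between the clones was 0.18 and Spearman's rho 0.52, and without mammary gland r was 0.76 and rho 0.75 over 7 tissues. Leaving out the tissue where the clones parted favours a higher r, and no other tissue was left out. These correlations describe arrays that share the same reference cell line. Which part of the transcript each clone holds was not analysed here.

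In the other tissues the means of both FGG clones lay between -0.10 and 0.25. Liver, the main site of fibrinogen synthesis, had 0.25 ± 0.09 for clone 1 and 0.16 ± 0.03 for clone 2 (SD over 3 spots). By the deposited sign it stood first among 8 tissues for clone 1 and the second for clone 2, and with the ratio turned it would stand last and next to last. Its spots overlapped those of a neighbouring tissue in each case. Spleen had 0.19 ± 0.11 and 0.06 ± 0.01, lymph tissue 0.09 ± 0.04 and 0.06 ± 0.02, and thymus 0.06 ± 0.18 and 0.14 ± 0.25. Adipose tissue gave 0.08 ± 0.04 and -0.02 ± 0.03, adrenal tissue -0.03 ± 0.28 and -0.10 ± 0.09, and ileum -0.07 ± 0.02 and -0.06 ± 0.05.

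The clones of FGG also parted on the lactating arrays. Clone 1 had -0.07 on array 1 and -0.43 on array 2, and clone 2 had 0.12 and 0.53. Their means of -0.25 ± 0.26 and 0.33 ± 0.29 (SD, n = 2 arrays) lay on opposite sides of 0. Neither was called over 1167 features, of which 11.7% were called, with limma's adjusted p of 0.377 for clone 1 and 0.246 for clone 2. Averaged into 1 gene they gave 0.04 ± 0.02 with an adjusted p of 0.896. On reference array 2 clone 1 had -0.07, -0.33 and -0.29, and the 2 usable spots of clone 2 were 0.54 and -0.09. The lymphoid arrays averaged 0.10 ± 0.03 for the gene and the non-lymphoid arrays 0.06 ± 0.14 (SD, n = 3 each), with an adjusted p of 0.837 in limma.

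**Figure D3:**
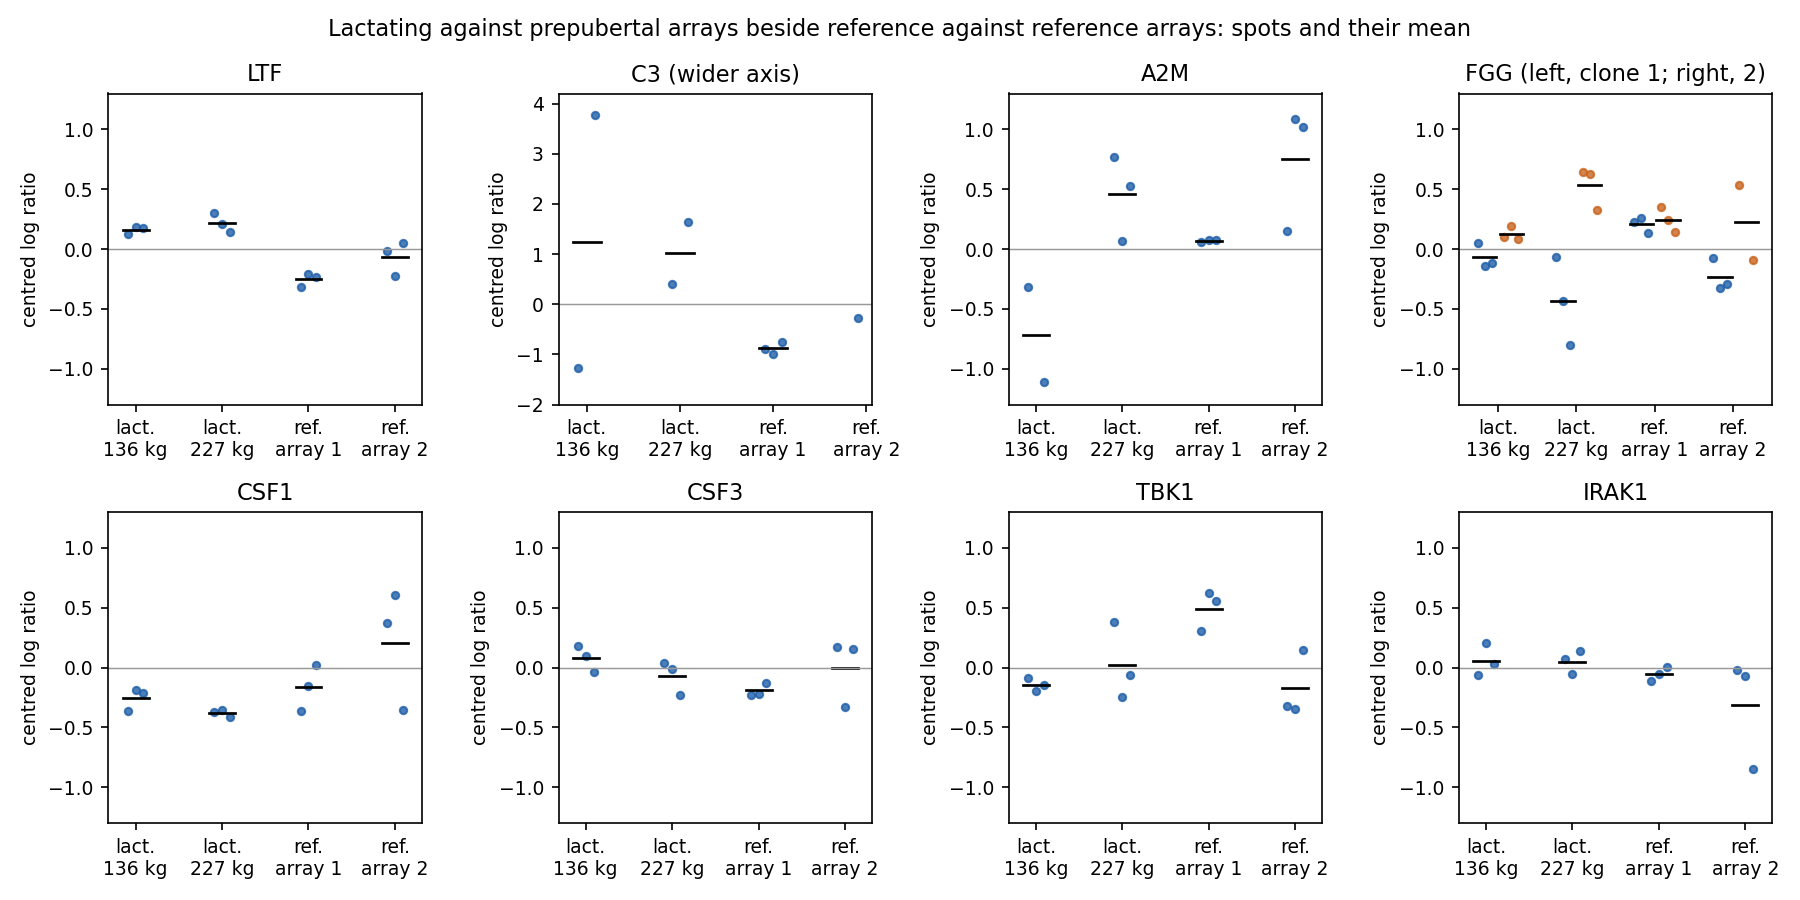
Centred log ratio (vertical axis) of every spot of the 8 genes on the 2 lactating against prepubertal arrays, named by the weight of the prepubertal heifer, beside the 2 reference against reference arrays, with black bars for the mean over spots. LTF and CSF1 keep 1 side on both lactating arrays, A2M changes side, and the spots of C3 and the clones of FGG pull apart.

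CSF1, the growth factor of macrophages and monocytes, was the gene of the 8 with the smallest p between lymphoid and non-lymphoid tissues. Lymph tissue had 0.21 ± 0.14, spleen 0.20 ± 0.05 and thymus 0.42 ± 0.10, against 0.01 ± 0.03 in adipose tissue, -0.07 ± 0.07 in adrenal tissue and -0.28 ± 0.09 in liver (SD over 3 spots). All 3 lymphoid arrays lay above all 3 non-lymphoid arrays. The lymphoid mean was 0.28 ± 0.12 and the non-lymphoid mean -0.11 ± 0.15 (SD, n = 3 arrays each). The difference of 0.39 (SE 0.11) ranked 15 of 698 genes by p and had an adjusted p of 0.150 in limma, so it was not called. The exact permutation test, two-sided, gave p = 0.1, the smallest that 3 arrays against 3 can reach.

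In its other arrays CSF1 was 0.12 ± 0.03 in mammary gland and -0.02 ± 0.12 in ileum (SD over 3 spots). The liver spots of -0.27, -0.20 and -0.38 lay below every spot of the other tissues, which held for liver in 13 of 1121 features (1.16%). On the lactating arrays CSF1 had -0.36, -0.19 and -0.21 on array 1 and -0.37, -0.36 and -0.41 on array 2. All 6 spots were on the side away from the caseins. The mean was -0.32 ± 0.09 (SD, n = 2), with an adjusted p of 0.180 in limma. The reference arrays gave -0.17 ± 0.19 and 0.21 ± 0.50 (SD over 3 spots), and the spots of array 2 ran from -0.36 to 0.61.

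CSF3, the growth factor of neutrophils, stood out in spleen and in adrenal tissue. The spleen spots were 0.50, 0.41 and 0.41, above all spots of the other 7 tissues, and the adrenal spots were -0.12, -0.13 and -0.17, below all of them. Spleen spots lay above all others for 10 of 1121 features (0.892%). Lymph tissue had 0.15 ± 0.03, thymus 0.04 ± 0.08, adipose tissue 0.07 ± 0.04 and liver 0.22 ± 0.07, with ileum at 0.03 ± 0.08 and mammary gland at -0.0039 ± 0.09 (SD over 3 spots). From adipose tissue down to mammary gland the spots of neighbours overlapped. The lymphoid arrays averaged 0.21 ± 0.20 and the non-lymphoid arrays 0.05 ± 0.18 (SD, n = 3 each), an overlap with an adjusted p of 0.482 in limma. Lactating gland gave 0.08 on array 1 and -0.07 on array 2, a mean of 0.01 ± 0.10 (SD, n = 2) with an adjusted p of 0.981 in limma. The reference arrays had -0.19 ± 0.05 and -0.0013 ± 0.29 (SD over 3 spots).

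TBK1, the kinase that phosphorylates interferon regulatory factors, had its extremes in ileum and lymph tissue. The ileum spots were 0.42, 0.27 and 0.34, above those of every other tissue, and the lymph tissue spots were -0.38, -0.46 and -0.42, below all of them. Lymph tissue was lowest in this sense for 12 of 1121 features (1.07%), and ileum was highest for 103 (9.19%) and lowest for 172 (15.3%), more features than for any other tissue. Spleen had -0.11 ± 0.13 and thymus -0.11 ± 0.13, against 0.06 ± 0.08 in adipose tissue, 0.03 ± 0.08 in adrenal tissue and -0.02 ± 0.04 in liver (SD over 3 spots). Mammary gland stood at -0.15 ± 0.02. The 3 lymphoid arrays lay below the 3 non-lymphoid arrays, at -0.21 ± 0.18 and 0.02 ± 0.04 (SD, n = 3 arrays each). The difference of -0.24 had an adjusted p of 0.247 in limma, and the two-sided exact permutation p was again 0.1.

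On lactating array 1 the spots of TBK1 were -0.08, -0.20 and -0.15, and on array 2 they were 0.38, -0.25 and -0.06. The array means of -0.14 and 0.02 had opposite signs, and the mean of -0.06 ± 0.12 (SD, n = 2) had an adjusted p of 0.845 in limma. Reference array 1 held 3 positive spots of 0.31, 0.62 and 0.55, so the cell line against itself moved TBK1 further from 0 than lactating gland did.

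IRAK1, which relays interleukin-1 and Toll-like receptor signals, had no tissue apart from its neighbours. Its lymphoid values were -0.07 ± 0.13 in lymph tissue, 0.09 ± 0.27 in spleen and 0.05 ± 0.05 in thymus (SD over 3 spots). Adrenal tissue had -0.03 ± 0.06, liver 0.05 ± 0.09, ileum 0.17 ± 0.06 and mammary gland -0.14 ± 0.22, and the 2 usable adipose spots were -0.68 and -0.16. The lowest tissue mean, adipose at -0.42, thus rested on 2 spots. Lactating gland gave 0.06 and 0.05, a mean of 0.05 ± 0.0045 (SD, n = 2) with an adjusted p of 0.858 in limma. The reference arrays had -0.05 ± 0.06 and -0.32 ± 0.46 (SD over 3 spots). The lymphoid arrays averaged 0.02 ± 0.08 and the non-lymphoid arrays -0.13 ± 0.25 (SD, n = 3 each), with an adjusted p of 0.480 in limma.

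Between lymphoid and non-lymphoid tissues 0 of the 8 genes were called in limma, against 0.287% of 698 genes, which was 2 genes, with 135 genes at an unadjusted p under 0.05. CSF1 and TBK1 were among those 135. Leaving out thymus gave 3 called genes, and leaving out any other of the 6 tissues gave 0. Groups without overlap occurred for 2 of the 8, CSF1 and TBK1, against 25.9% of all genes, so that the count for the 8 was near the background. The leukocyte markers measured were PTPRC, LCP1 and RAC2, whose lymphoid minus non-lymphoid differences were -0.0016, -0.21 and -0.29 in the same fit. RAC2, a GTPase of blood cells, did not overlap between the groups. CSF1 took the opposite sign to LCP1 and RAC2, and TBK1 the same sign. Of all 698 genes 327 had a positive difference, so a shared or opposite sign says little by itself. The part of leukocytes in the differences of CSF1 and TBK1 was not tested.

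**Figure D4:**
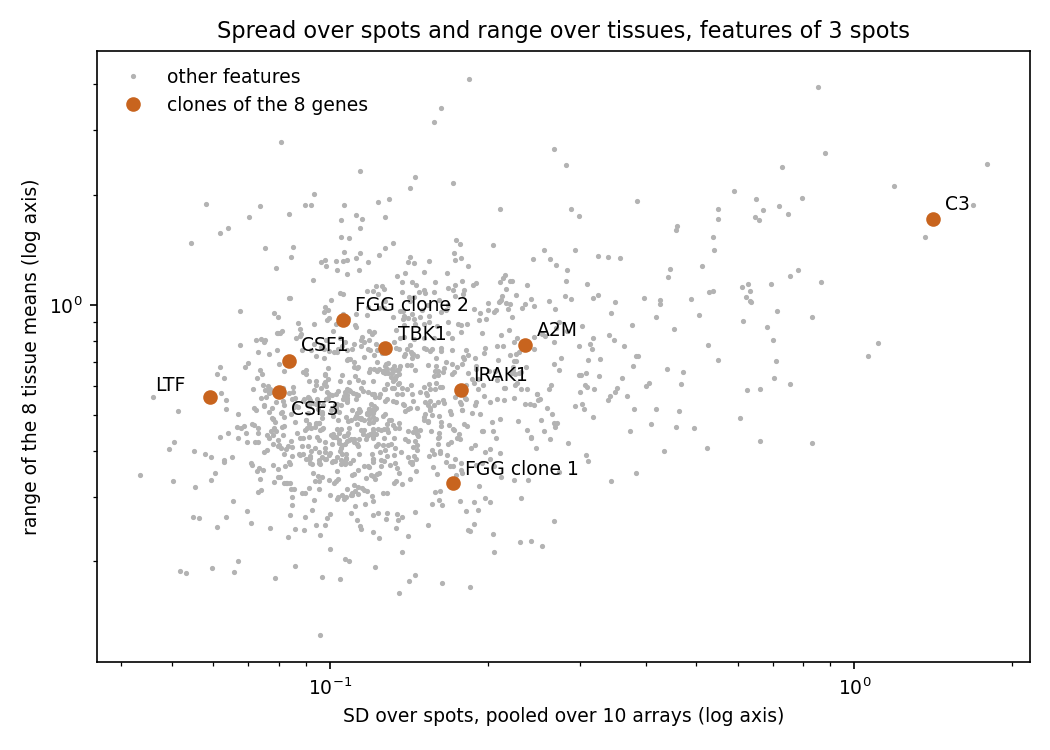
Range of the 8 tissue means (vertical, log axis) against the SD over spots pooled over the 10 tissue and lactating arrays (horizontal, log axis) for features of 3 spots, with the clones of the 8 genes named. LTF sits at the left edge with an SD of 0.0590 and C3 near the right edge with 1.41, against a median of 0.127 over 1171 features.

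Repeatability set the 8 genes apart from one another more than their tissue ranges did. The SD over spots, pooled over the 10 arrays, was 0.0590 for LTF, which only 1.28% of 1171 features undercut. It was 0.0799 for CSF3 and 0.0835 for CSF1, with 10.3% and 12.8% of features below them. TBK1 at 0.128 and FGG clone 2 at 0.106 lay near or below the median of 0.127. FGG clone 1 at 0.171, IRAK1 at 0.178 and A2M at 0.235 lay above it, and C3 at 1.41 exceeded 99.7% of features. The range of the tissue means ran from 0.33 for FGG clone 1 to 1.72 for C3, against a median of 0.556. LTF with 0.56, CSF3 with 0.58 and IRAK1 with 0.59 were close to that median. The range exceeded the pooled SD over spots for all 9 clones, C3 included. A range over 8 means can pass the SD of single spots through scatter alone, so this does not show that tissues differ. For C3 the SDs within single tissues reached 2.15.

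Few other genes of the same pathways were on the array. Of 82 plasma protein and complement genes 6 were measured, with a median of -0.04 between lactating and prepubertal gland against -0.00027 over all genes. C3 was the 1 of 6 that was called, against 14.8% of all genes. C1R, a protease that starts the classical complement cascade, had -0.04 ± 0.02, CD46, a complement regulator, -0.04 ± 0.11, and LBP, which binds bacterial lipopolysaccharide, -0.09 ± 0.04 (SD, n = 2). The means of these 3 thus stayed within 0.1 of 0, although LBP had -0.12 on array 1. CD46 had 0.04 on array 1 and -0.12 on array 2. Of 30 defence genes, LTF and the mucin gene MUC1 were measured, and MUC1 had -0.10 ± 0.14 with an adjusted p of 0.751 in limma.

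Of 92 innate signalling genes 7 were measured, and 1 was called, on the casein side, against 14.8% of all 697 genes. SQSTM1, an autophagy receptor that binds TRAF6, had 0.43 on array 1 and 0.73 on array 2, a mean of 0.58 ± 0.21 (SD, n = 2) with an adjusted p of 0.0205 in limma. Reference array 1 gave SQSTM1 -0.55, a deviation of like size on the other side, and reference array 2 gave 0.10. IRAK4, the kinase that acts upstream of IRAK1, had -0.34 ± 0.17 with an adjusted p of 0.158, and TRAF6, the ubiquitin ligase downstream of IRAK1, had 0.32 ± 0.04 with an adjusted p of 0.167. IRAK1 itself lay between them at 0.05. CASP8 had -0.17, IRAK2 -0.11 and OPTN, an adaptor of TBK1, 0.09, and none of these was called. The median of the 7 was 0.05.

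The cytokine list of 72 genes had 3 genes with a lactating mean. IL6, a cytokine of the acute phase response, had -0.06 on array 1 and 1.17 on array 2, and its mean of 0.55 ± 0.86 (SD, n = 2) had an adjusted p of 0.106 in limma. It resembled A2M in that the arrays differed in sign, and 0 of the 3 cytokine genes were called, against 14.8% of all genes. Between lymphoid and non-lymphoid tissues 4 cytokine genes were measured and 0 were called, against 0.287% of all genes. The differences of CSF1 and CSF3 were 0.39 and 0.16, while those of CSF2RB, the shared receptor chain of interleukin-3 family cytokines, and of IL6 were both -0.29.

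Marker lists of other cell types were read on the lactating arrays beside these values, against the 14.8% of all genes called. Of 13 milk secretion genes 8 were measured, 7 lay on the casein side and 2 were called, with a median of 0.44. The caseins, which defined that side, were among the 8, and the 2 called were CSN1S1 and CSN2. Of the rest, LALBA at 0.47, PAEP at 0.47 and BTN1A1 at 0.29 lay on that side and MUC1 at -0.10 did not. None of these was called. Of 11 mammary epithelium genes 3 were measured and 0 were called, with EPCAM at 0.14, ELF5 at -0.09, KRT7 at -0.25 and a median of -0.09. Of the 3 leukocyte markers, RAC2 was called on the opposite side at -0.53 ± 0.39 (SD, n = 2) with an adjusted p of 0.0438 in limma. PTPRC at 0.08 and LCP1 at -0.01 were not called. CSF1, not called, lay on the same side as RAC2 and as LCP1, which was near 0, while PTPRC lay on the other side. LTF, also not called, and the mean of C3 lay on the casein side, although the first C3 spot averaged -0.43. Of all 697 genes 348 had a positive mean, so sharing a side says little by itself. The part of cell composition in these values was not tested.

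The pattern of each gene over the 8 tissues was set beside that of the 694 other genes with a value in all of them. The 3 largest r of each search are given, and the largest of 694 over 8 points are high by selection. What unrelated genes would give was not worked out, so the partners are a description only. LTF was most like S1PR1, ARL6 and MTFMT, with Pearson's r of 0.95, 0.94 and 0.93 over 8 tissues. A2M was most like DDX39A (0.95), TBC1D7 (0.90) and SLF2 (0.87). FGG was most like RMDN1 (0.92), REEP5 (0.91) and MAPKAPK5 (0.91), and without ileum and mammary gland these were 0.59, 0.56 and 0.91 over 6 tissues. CSF1 was most like DCTN3 (0.94), DLG5 (0.93) and SRSF5 (0.93), and CSF3 was most like CYP20A1 (0.91), CDK5RAP3 (0.90) and RAVER1 (0.87). TBK1 was most like LOC510377 (0.97), OMA1 (0.95) and GIGYF1 (0.93).

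C3 and IRAK1, which had the largest SD over spots within a single tissue, had weaker best matches. C3 was most like TXNDC12 (0.86), IRAK2 (0.79) and SF3A3 (0.79), and IRAK1 was most like RARA (0.87), ATIC (0.80) and OGDH (0.76). Among the 8 genes themselves the highest of 28 correlations was 0.74, for LTF and CSF3, followed by 0.70 for A2M and CSF1, and the lowest was -0.50 for C3 and FGG. In these unscaled values LTF and CSF3 shared both ends of the order. Adrenal tissue had the most negative mean and spleen the most positive, which would change places with the ratio turned. The order was not redone with arrays scaled to equal spread, and the liver array had a smaller spread than the spleen array (0.108 against 0.168). The correlations are descriptions over 8 points that share 1 reference cell line and 1 array design, and pairs of tissue arrays correlated at -0.24 to 0.67 over all features.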

How the data were processed

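The deposited values were 1 score per spot and array, a log ratio of 2 channels made by the authors. Its base, background correction, normalization and order of channels are not stated in the sources used here. Spots were named from the platform annotation, which gave 1 gene for 2538 of 3888 spots, several for 30 and none for 1320, and all 8 symbols were unchanged in the RefSeq table. The probe and promoter sequences were not used here, and a planned search of promoter motifs was not run.

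Exact zeros were taken as missing, each array was centred on its median, spots of 1 accession were averaged into features (at least 2 spots, a value on at least 7 arrays) and features into genes. Arrays were tested with limma 3.58.1 in R 4.3.3 (lmFit, eBayes, Benjamini-Hochberg at 0.05, two-sided), fitted over the whole table: the mean of the 2 lactating arrays against 0, and lymph, spleen and thymus minus adipose, adrenal and liver, with each organ as 1 unit. Ileum and mammary gland were left out of that difference for their exact zeros. The fit was also run on simulated gene values, with shifts larger than those of the 8 genes in the main fits. That run does not bear on shifts of their size or on spots that disagree. Other steps ran in Python 3.11.15 (pandas 2.3.3, scipy 1.17.1). The number of arrays limits the precision.

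The members, the lists and the tests were chosen with earlier results of these data known. Named genes were the 8 members, genes of the pathway lists that passed a test or else up to 4 with the largest means, and the 3 genes most like each member. Other genes of these small lists were named after their values were seen. TBK1 was not in the innate signalling list. Alternatives covered centring, exact zeros, scale, spot summaries, filters, the reference arrays and each array left out. Fits on 1 spot of each clone were added after the data were seen. The cell line is spelled BovMav on reference array 1. For lactating array 2 the title was followed, although 1 keyword says post-pubertal.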

Additional observations from a re-analysis of the deposited data

How the results depend on the processing

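The count of genes called on the lactating arrays by limma, 103 of 697, was 32 with exact zeros kept, 30 with arrays scaled to equal spread, 38 with the reference arrays sharing the spread, 14 as a contrast with those arrays, and 22 to 48 with 1 lactating array left out. With only the first, the second or the third spot of each clone it was 50, 0 and 25, and at the second spot 108 genes had an unadjusted p under 0.05. Without centring it was 84, of which 52 were on the casein side, against 79 of 103. For features the count of 136 became 26, 51, 62 and 20 under the first 4 of these settings, 15 and 20 with the second or the third spot alone, and 13 to 40 with 1 array left out. The 2 genes called between lymphoid and non-lymphoid tissues became 0 without centring, with exact zeros kept, with equal spread, with the median of spots, without the filter, with any single spot and with mammary gland among the non-lymphoid tissues, where 77 to 141 genes had an unadjusted p under 0.05, and 0 to 3 with 1 tissue left out, the 3 being without thymus.

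Of 227 alternatives for the 8 genes in the 2 tests, 202 kept direction and call, 22 reversed the sign and 3 kept the sign of C3 but ended its call. C3 also lost its call with the first spot, 1 of the 22. Only C3 on the lactating arrays had a call to lose, and some settings cannot change a gene's value, so the count of 202 is partly fixed in advance. Signs of means near 0 turned most often. On the lactating arrays the first spot gave C3 -0.43, A2M 0.23 and TBK1 0.15, and the third spot gave FGG -0.13 and CSF3 -0.13. With 1 array left out, A2M ran from -0.71 to 0.46, CSF3 from -0.0667 to 0.0795 and TBK1 from -0.14 to 0.0234. Without centring, FGG was -0.0594, CSF3 -0.0914 and IRAK1 -0.0440. FGG was -0.25 from its feature with most spots and -0.0724 against the reference arrays, and CSF3 was -0.0136 with exact zeros kept. Between lymphoid and non-lymphoid tissues C3 was -0.12 with the median of spots, -0.62 with the second spot and -0.47 (without liver) to 0.39 with 1 tissue left out. FGG was -0.0640 with the second spot, -0.0546 with mammary gland added and -0.0192 to 0.12 with 1 tissue left out, and IRAK1 was -0.0441 with the third spot. The cause was not tested. LTF and CSF1 kept their sign in all 14 settings on the lactating arrays, and LTF, A2M, CSF1, CSF3 and TBK1 in all 17 between tissues. The settings reuse the same spots, and some leave the value unchanged. Without the filter, with 1 feature a gene or with the reference arrays sharing the spread, LTF stayed at 0.19 and CSF1 at -0.32. Of 192 alternatives for tissue levels, 189 stayed within the SD over spots. That limit is wide where spots scatter, so it says little for such genes. The liver mean of C3, -1.10, became -0.07 as a median and stayed within its SD of 2.15. The 3 that moved were for A2M in adipose tissue and TBK1 in mammary gland, where the SD was only 0.01 and 0.02. These alternatives were the median of spots, no centring and exact zeros kept, and did not include scaling to equal spread. No paired analysis was possible because each tissue had a single array, whose number only names it, and the lactating arrays were tested against 0.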

Other observations

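The array of prepubertal against postpubertal gland entered no comparison, and spots of a clone had a mean Spearman rho of 0.0598 on it. TBK1 had spots of 0.24, 0.37 and 0.44 there, a mean of 0.35 ± 0.10 (SD over 3 spots), which was the largest of the 8 genes in size. LTF had -0.11, -0.21 and -0.11, and all 3 were negative. IRAK1 averaged -0.23 ± 0.49 and A2M -0.20 ± 0.20, while C3 had 0.15 ± 0.19, CSF3 0.07 ± 0.24, FGG -0.03 ± 0.19 over its 6 spots and CSF1 -0.01 ± 0.04.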
